A study of Mus musculus with 8 samples.

Results

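The peaks described here are the distal double-stranded break (DSB) peaks of Chd1 KO mouse ES cells that hold both a CA repeat and a run of G and C. A peak was counted when its summit lay more than 1 kb from every annotated transcription start site (TSS) and outside coding sequence, and when the sequence under it held a perfect CA repeat (TG on the other strand) of at least 20 bp and a G/C run, meaning 12 or more bases in a row that are all G or C. Of the 5671 peaks in Chd1 KO cells, 1892 were distal and outside coding sequence, and 473 of these met the rule (25.0% of the distal peaks, interval 23.1% to 27%). The other 1419 distal peaks comprised 1213 with a G/C run only, 28 with a CA repeat only and 178 with neither.

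The peaks come from DSB-seq, in which broken DNA ends in fixed nuclei are extended with biotin-labeled nucleotides by terminal transferase, captured on streptavidin and sequenced from a single end with reads of 50 bp. Established ES lines of both genotypes were used, Chd1 KO (Chd1Δ/Δ, both alleles deleted) and control (Chd1fl/Δ, 1 floxed and 1 deleted allele), so that the control cells carry a deleted allele too. Each genotype had 2 replicates with between 13279910 and 16234625 deduplicated reads, and the replicates were combined before peaks were called, giving 1 list of 5671 peaks for Chd1 KO and 1 list of 54 for control. No value below therefore has a replicate error, no test over samples was possible, and the 95% intervals (Wilson for shares) cover counting error only. Neither the deletion nor the ES cell identity can be checked from peak lists.

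CA repeats are among the most common microsatellites of the mouse genome, and most of them lie between genes or in introns. A CA repeat is a stretch in which pyrimidine and purine alternate base by base, and so is a tract of alternating C and G. Such alternating stretches, C-G tracts above all, are known for their ability to flip from the right-handed double helix into left-handed Z-DNA when the DNA is underwound, whereas unbroken runs of G on a strand can fold into G-quadruplexes. Chd1 is a chromatin remodeler that binds histone H3 methylated at active promoters. No DNA structure was measured in these cells.

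The sequences show what these peaks have in common. The 6 with the highest fold enrichment that lie outside exons are printed first, 5′ to 3′ on the strand whose repeat reads CA, in the mm9 build, with the CA repeat and the G/C run in capitals and 15 bp of flank in lower case. Here and below, near a gene means only that its TSS is the closest annotated one, at any distance. It was 30.7 kb away for Slc36a4, 35.6 kb for Reep1 and 78.8 kb for Pth2r.
Peak near Slc36a4, chr9:15483403-15483496, plus strand: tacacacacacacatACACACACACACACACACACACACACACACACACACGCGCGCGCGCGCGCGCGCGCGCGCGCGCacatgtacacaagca
Peak near Reep1, chr6:71621933-71622018, plus strand: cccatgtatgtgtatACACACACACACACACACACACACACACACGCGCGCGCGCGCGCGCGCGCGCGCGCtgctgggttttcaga
Intergenic peak on chromosome 3, chr3:132021164-132021265, minus strand: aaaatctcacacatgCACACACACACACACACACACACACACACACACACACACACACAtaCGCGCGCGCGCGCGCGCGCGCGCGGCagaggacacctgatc
Peak near Pth2r, chr1:65436533-65436605, plus strand: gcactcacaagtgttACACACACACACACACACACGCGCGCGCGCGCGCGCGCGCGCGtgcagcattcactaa
Peak in a Gm16080 intron, chr4:131259759-131259857, plus strand: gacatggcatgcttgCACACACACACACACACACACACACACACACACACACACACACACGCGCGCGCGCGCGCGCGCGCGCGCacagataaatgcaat
Peak in a Glrb intron, chr3:80686977-80687074, plus strand: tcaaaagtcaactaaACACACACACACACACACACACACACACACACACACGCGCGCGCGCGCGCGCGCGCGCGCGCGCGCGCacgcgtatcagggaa
In all 6 the G/C run stood at the 3′ end of the CA repeat and held an alternating C-G tract of 24 to 33 bp, and in 5 of the 6 the CA repeat ran into it without a break. The 6 are not typical in side or tract length. Over the 473 peaks the run was on the 5′ side in 315, and the median longest tract was 20 bp. For contrast, the peaks with the lowest fold enrichment had the same composition with shorter tracts, of 19 and 14 bp.
Peak near Cd40, chr2:164899361-164899447, minus strand: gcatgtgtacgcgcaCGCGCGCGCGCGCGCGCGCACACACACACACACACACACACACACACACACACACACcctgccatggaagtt
Peak with the lowest fold enrichment, chr14:78437712-78437784, minus strand: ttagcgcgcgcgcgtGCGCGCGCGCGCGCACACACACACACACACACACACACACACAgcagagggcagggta
The peak with the longest G/C run, 43 bp, was of another kind. It lies in an intron of Dclk1, which encodes a microtubule-associated kinase of neurons, and its run is a repeat of C and G in which they do not alternate, separated by 11 bp from the CA repeat.
Peak in a Dclk1 intron, chr3:55169491-55169602, plus strand: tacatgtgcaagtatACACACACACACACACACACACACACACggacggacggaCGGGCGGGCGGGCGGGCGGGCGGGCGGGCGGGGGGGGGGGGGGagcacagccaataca
The next longest runs were one of 41 bp in an intron of Gm20388, also without alternation and 183 bp from its CA repeat, and an alternating tract of 36 bp in an intron of Nepn, with fold enrichments of 7.24 and 8.33.

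An alternating C-G tract was nearly always present, although the rule asked only for G and C in any order. A tract of at least 12 bp stood in 454 of the 473 peaks (96.0%, interval 93.8% to 97.4%), against 80 of the 1213 distal peaks with a G/C run but no CA repeat (6.60%, interval 5.33% to 8.13%), a difference of 89.4 percentage points (interval 86.7 to 91.3). A motif of 4 stretches of GGG separated by 1 to 7 bases, on either strand, showed the opposite pattern. It stood in 23 of the 473 peaks (4.86%) and in 1000 of the 1213 (82.4%), a difference of -77.6 percentage points (interval -80.2 to -74.3). The 2 kinds of distal peak thus differed in which G/C sequence they held by far more than counting error. Alternating tracts are also the common kind of run beside CA repeats in the genome. Of distal CA repeats of at least 20 bp, under a peak or not, 2613 had such a tract within 2 bp and 596 another kind of G/C run. The comparison with peaks that hold no CA repeat does not take this into account. Of the 19 peaks without a tract of 12 bp, 9 had a shorter one of 8 to 11 bp and 14 held the GGG motif.

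The repeat and the run were mostly a single block. No base separated them in 372 of the 473 peaks (78.6%, interval 74.7% to 82.1%). They lay 1 or 2 bp apart in 12, 3 to 20 bp apart in 63 and more than 20 bp apart in 26, with a largest gap of 183 bp. In 447 peaks (94.5%) both lay within a single stretch in which purine and pyrimidine alternated, of a median 66 bp (quartiles 56 to 78). The CA repeat had a median length of 35 bp (range 20 to 91) and the G/C run of 20 bp (range 12 to 43). The longest CA repeats, of 91, 70 and 69 bp, lay near Parp8, in an exon of Hspb7 and in an intron of Pibf1, with fold enrichments of 5.21, 3.74 and 5.56. These are lengths in the reference genome, and the repeat lengths in these cells were not measured. The block from the outer end of the repeat to that of the run had a median of 57 bp, and it exceeded the read length of 50 bp in 335 peaks (70.8%). A read lying wholly within such a block has little unique sequence, and reads of low mapping quality had been removed. The effect of this on the shares below was not tested.

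The summits lay on or beside the block. Measured from the summit to the nearest base of the G/C run, 402 of the 473 summits were within 50 bp (85.0%, interval 81.5% to 87.9%), and the same number were within 50 bp of the CA repeat. Of all summits, 105 fell in the run and 99 in the repeat, and 437 were within 50 bp of the block (92.4%). The rule itself asked for both sequences within the peak, whose median width was 296 bp. Part of this closeness was therefore set by the rule, and the shares that placement within the peak alone would give were not computed. Along the strand that reads CA, the median summit was 12 bp on the 5′ side of the centre of the block where the run was on the 5′ side (offset -12 bp, quartiles -36 to 22.3, 315 peaks). Where the run was on the 3′ side it was at an offset of 26.5 bp (quartiles -7.88 to 46.0, 158 peaks). The summit was thus displaced toward the run in both orientations, but both distributions straddled the centre.

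**Figure D1:**
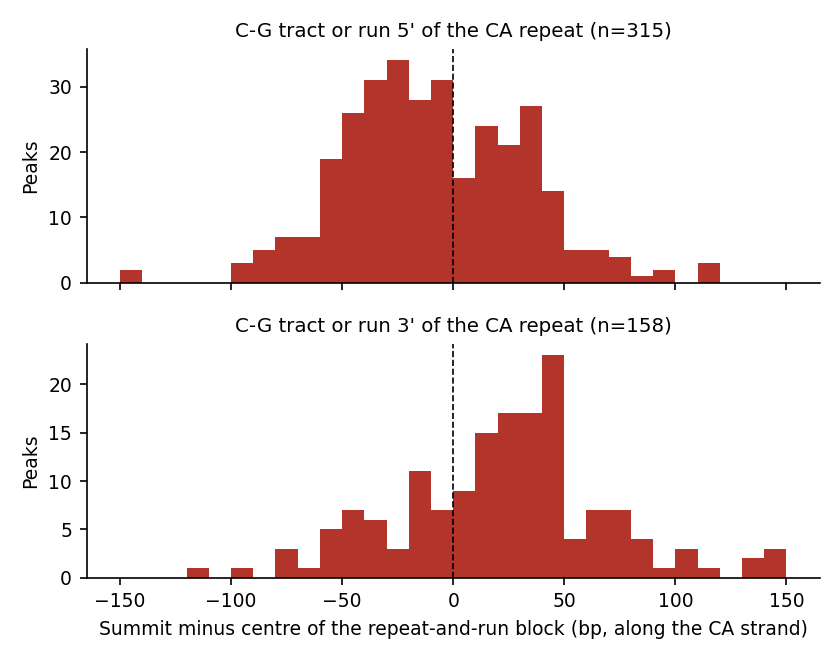
Number of peaks by the position of the summit relative to the centre of the block of CA repeat and G/C run, in bp along the strand that reads CA, in bins of 10 bp, for the 315 peaks with the run 5′ (top) and the 158 with the run 3′ of the repeat (bottom). The end bins also hold the 2 peaks of each kind beyond 150 bp, and the bulk of the summits lies to the left of the centre in the top panel and to the right in the bottom panel.

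The fold enrichment, which is the authors' ratio of summit reads to the local background with 1 added to each, had a median of 5.34 over the 473 peaks (quartiles 4.54 to 6.25, range 3.33 to 10.4), with a median of 23 reads at the summit (range 13 to 51). Distal peaks with a G/C run only had a median of 4.73 (quartiles 4.17 to 5.37), those with a CA repeat only 4.70 and those with neither 4.32. The medians differed in the order given, but the quartile ranges overlapped. The 80 other distal peaks that held a C-G tract without a CA repeat of 20 bp had a median of 5.26, close to that of the 473. Of these 80, 62 held a CA repeat of 10 to 19 bp, just short of the rule. GC content was lower in the 473 peaks, with a median of 49% against 55.8% in peaks with a G/C run only. This was not particular to the 473, since the median was 49.5% in the 80 other peaks with a C-G tract and 48.4% in those with a CA repeat only.

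Among the 454 peaks with a tract of 12 bp or more the fold enrichment was higher at longer tracts. Its median was 4.54 for the 59 peaks with a tract of 12 to 15 bp, 4.90 for the 141 with 16 to 19 bp, 5.53 for the 172 with 20 to 23 bp, 6.22 for the 61 with 24 to 27 bp and 7.35 for the 21 with 28 bp or more. The 19 peaks without such a tract did not follow this order, with a median of 5.50 (quartiles 4.48 to 6.23). Across the 473 peaks, which share a library and are not replicates, Spearman's rho with the fold enrichment was 0.471 for tract length, -0.0623 for CA repeat length and -0.320 for GC content. The peak near Slc36a4, which encodes an amino acid transporter, led the list at a fold enrichment of 10.4, with 48 reads, a local background of 3.72 reads and a tract of 29 bp. It was followed by peaks near Reep1 (10.3, tract 27 bp), on chromosome 3 (10.3, tract 24 bp), near Pth2r (9.91, tract 24 bp), in Gm16080 (9.77, tract 25 bp) and in Glrb (9.73, tract 33 bp), the gene of the glycine receptor beta subunit. The next were in Accn1, which encodes an acid-sensing ion channel, at 9.48, and near Gm12603, 1700016C15Rik and Gm10159, at 9.36, 9.20 and 9.08. The 5 lowest, in introns of Ank2 and Wbscr17 (both 3.59), near Alox5ap (3.54), near Cd40 (3.48) and at the site on chromosome 14 (3.33), had tracts of 14 to 19 bp.

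**Figure D2:**
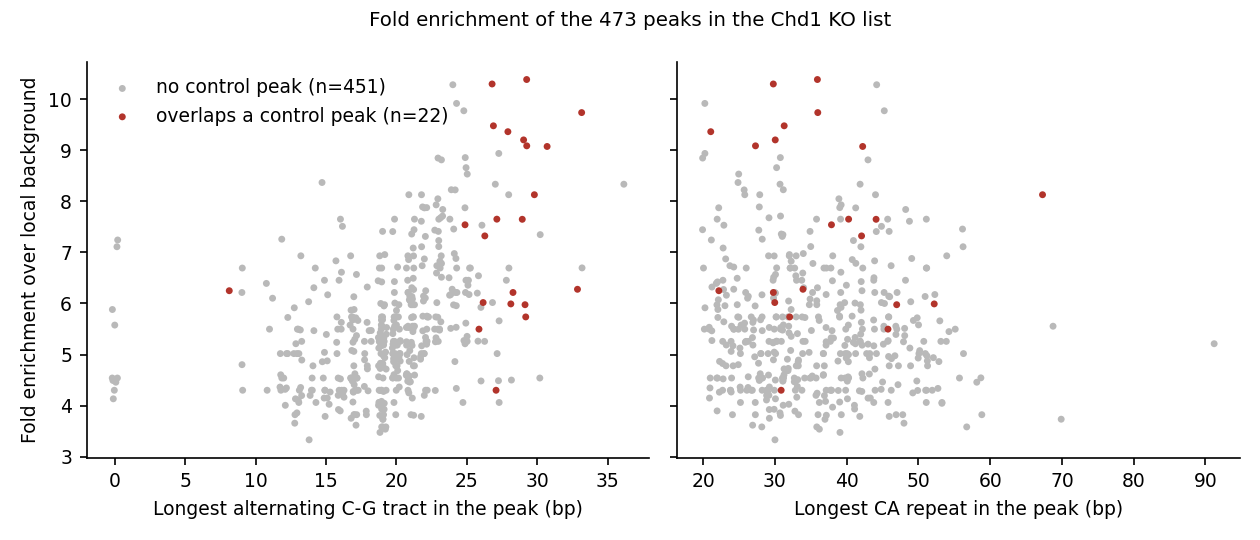
Fold enrichment of each of the 473 peaks in Chd1 KO against the longest C-G tract (left) and the longest CA repeat (right) under it, in bp, with a small horizontal jitter. Red points are the 22 peaks that overlap a control peak, of which 21 lie at tracts of 24 bp or more; among tracts of 12 bp or more the median rises with tract length from 4.54 to 7.35, while rho with CA repeat length is -0.0623.

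The peaks were a small part of the CA repeats in the genome, and the sequence beside the repeat set them apart. Of 263824 distal CA repeats of at least 20 bp, 526 had their centre under a Chd1 KO peak (0.199%). Where a G/C run stood within 100 bp the share was 491 of 5139 (9.55%, interval 8.78% to 10.4%), and where none did it was 35 of 258685 (0.0135%), a ratio of 706 (interval 502 to 994). With a run of 20 bp or more within 100 bp the share was 51.4%. For these shares a tract or run was taken to touch the repeat when at most 2 bp separated them. Repeats touching a C-G tract of 12 bp or more were covered in 386 of 2613 cases (14.8%, interval 13.5% to 16.2%), and those touching another kind of G/C run in 5 of 596 (0.839%), a ratio of 17.6 (interval 7.32 to 42.4). With both kinds at least 16 bp long the shares were 342 of 972 (35.2%) and 5 of 145 (3.45%, interval 1.48% to 7.82%). The share fell with distance, to 7.75% for a run 3 to 20 bp away, 6.42% at 21 to 50 bp, 1.20% at 51 to 100 bp, 0.359% beyond 100 and up to 200 bp and 0.0180% beyond 200 and up to 500 bp. These classes pooled C-G tracts with other G/C runs. The 473 peaks had a median width of 296 bp, so the centre of a repeat far from the run can lie outside a peak on that run. The part of peak width in this fall was not tested.

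Other simple repeats beside the CA repeat gave no such shares. Of 7376 distal CA repeats touching a T-A repeat of 12 bp or more, which also alternates purine and pyrimidine, 0 were under a peak, which allows a share of up to 0.0407%. Of 26774 touching a G-A or C-T repeat of that length, 3 were (0.0112%). The CA repeats without a run or tract nearby stayed between 0.00377% and 0.0154% at every repeat length from 20 bp up.

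The share under a peak climbed with the length of the C-G tract touching the repeat. In Chd1 KO it was 0.977% for tracts of 8 to 11 bp, 2.68% (44 of 1641) for 12 to 15 bp, 19.2% (120 of 625) for 16 to 19 bp, 58.9% (146 of 248) for 20 to 23 bp, 71.1% (54 of 76) for 24 to 27 bp and 95.7% (22 of 23, interval 79.0% to 99.2%) for 28 bp or more. The length of the CA repeat made less difference. At tracts of 16 bp or more the shares were 32.4%, 37.2%, 33.2% and 43.1% for CA repeats of 20 to 29, 30 to 39, 40 to 49 and at least 50 bp, with overlapping intervals. The 1 repeat with a tract of 28 bp or more that no Chd1 KO peak covered lies on chromosome 17, 7.25 kb from the nearest TSS and in no annotated transcript, with a CA repeat of 51 bp and a tract of 35 bp on its 5′ side. It is printed in the same way, as the exception.
Site under no peak, chr17:24167785-24167899, plus strand: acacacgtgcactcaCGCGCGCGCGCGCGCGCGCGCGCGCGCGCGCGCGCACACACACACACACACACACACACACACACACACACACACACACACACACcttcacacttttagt

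**Figure D3:**
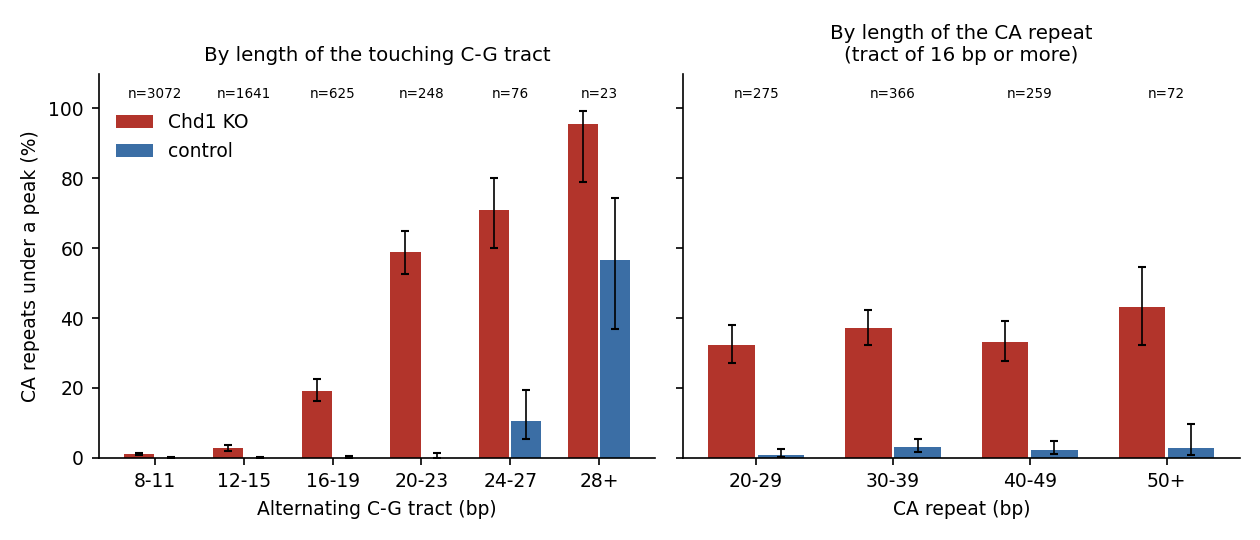
Share of distal CA repeats of at least 20 bp whose centre lies under a peak, in percent, by the length of the C-G tract that touches the repeat (left) and, for tracts of 16 bp or more, by the length of the CA repeat (right). Bars are the Chd1 KO (red) and control (blue) lists, error bars are 95% Wilson intervals and n is the number of repeats; the red bars rise from 0.977% to 95.7% on the left and stay between 32.4% and 43.1% on the right.

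Tracts that no CA repeat touched were also found under peaks. Among distal C-G tracts with no CA repeat of 10 bp within 2 bp of them, 32 of 458 (6.99%) were under a Chd1 KO peak at 12 to 15 bp, 31 of 109 (28.4%) at 16 to 19 bp, 27 of 42 (64.3%) at 20 to 23 bp and 9 of 12 (75%) at 24 bp or more. With a touching CA repeat of 20 bp or more the shares were 2.66%, 19.2%, 59.8% and 77.3%. The difference, touching minus not touching, was -4.32 percentage points (interval -7.12 to -2.13) at 12 to 15 bp and -9.25 (interval -18.8 to -0.948) at 16 to 19 bp. It was -4.45 (interval -18.6 to 11.8) at 20 to 23 bp and 2.32 (interval -16.3 to 31.5) at 24 bp or more, where the intervals include 0. Pooled over 17 strata of equal tract length by the Mantel-Haenszel method, the odds of a peak for tracts that touched a CA repeat of 20 bp were 0.525 times those of tracts that touched none of 10 bp (interval 0.388 to 0.710).

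Most of the tracts that touched no repeat still had one nearby. Of the 99 that were under a peak, 72 had a CA repeat of 20 bp or more at 3 to 100 bp, out of 405 such tracts (17.8%). A further 8 had one of 10 to 19 bp, out of 77 such tracts (10.4%). The other 19 were among 139 distal tracts with no CA repeat of 10 bp within 100 bp (13.7%, interval 8.93% to 20.4%). By tract length these 19 comprised 6 of 97 (6.19%) at 12 to 15 bp, 6 of 31 (19.4%) at 16 to 19 bp, 5 of 8 at 20 to 23 bp and 2 of 3 at 24 bp or more. For tracts with a CA repeat of 20 bp or more at 3 to 100 bp, the shares in the same classes were 7.43%, 32.4%, 70% (21 of 30) and 75% (6 of 8). Against these 139 tracts the pooled odds ratio of tracts touching a CA repeat of 20 bp was 0.831 (interval 0.451 to 1.53), an interval that includes 1. A difference between tracts with a CA repeat and tracts with none nearby was thus not detectable in these numbers. The tract lay in a longer G/C run, by more than 2 bp, in 2.1% of the tracts touching a repeat of 20 bp and in 8.21% of those touching none. Without such extended tracts the odds ratio of touching against not touching was 0.563 (interval 0.408 to 0.776).

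**Figure D4:**
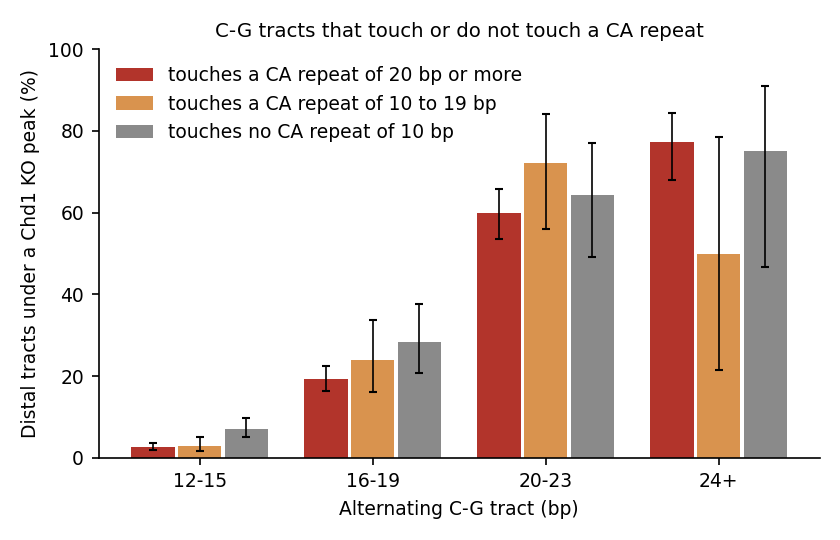
Share of distal alternating C-G tracts under a Chd1 KO peak, in percent, by tract length in bp, for tracts touching a CA repeat of 20 bp or more (red), one of 10 to 19 bp (orange) or none of 10 bp (gray). Error bars are 95% Wilson intervals; the red and gray bars rise with every class of tract length, from 2.66% and 6.99% to 77.3% and 75%, and the orange bars rise to 72.2% (26 of 36) at 20 to 23 bp and stand at 4 of 8 tracts in the longest class.

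The share under a peak also differed with the side on which the tract stood. In the genome the tract was on the 5′ side of the strand that reads CA in 2110 of the 2613 distal repeats that touch one, and on the 3′ side in 503, while the shares under a Chd1 KO peak were 12.4% and 24.9%. At equal tract length the 3′ side exceeded the 5′ side by 2.61 percentage points at 12 to 15 bp (interval 0.406 to 5.96) and by 13.8 at 16 to 19 bp (interval 5.85 to 22.6). At 20 to 23 bp the difference was 9.10 points (interval -4.96 to 21.8) and at 24 bp or more 0.256 points (interval -17.4 to 16.2). Among the 473 peaks the run was on the 5′ side in 315 (66.6%) and on the 3′ side in 158.

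In control cells 22 of the 54 peaks met the same rule, and all 22 overlapped a Chd1 KO peak of the 473. This is 4.65% of the 473 (interval 3.09% to 6.94%), against 0.864% of all Chd1 KO peaks and 2.59% of the distal ones that overlapped a control peak. With a run of 20 bp or more asked for, 279 peaks remained and the share was 7.89%. Among distal peaks with a G/C run only the share was 5 of 1213 (0.412%), a difference of 4.24 percentage points (interval 2.59 to 6.54). Among all other distal peaks it was 27 of 1419 (1.90%), a difference of 2.75 points (interval 0.971 to 5.11). Among the 80 of these that held a C-G tract it was 2 (2.5%, interval 0.688% to 8.66%). The difference from these 80 was 2.15 points, with an interval of -4.21 to 5.07 that includes 0. Peaks with neither sequence had the highest share, 21 of 178 (11.8%). Of the 54 control peaks, 14 lay on chromosome Y, where none of the 473 did. How many of the 21 lay on Y was not counted.

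Nearly all of the overlap with control fell on peaks with long tracts. Of the 82 peaks with a tract of 24 bp or more, 21 overlapped a control peak, and of the 391 with a shorter tract or none, 1 did. Seen from the genome, control peaks covered 0 of 625 CA repeats with a tract of 16 to 19 bp, which allows a share of up to 0.480%, and 0 of 248 at 20 to 23 bp, which allows up to 1.21%. They covered 8 of 76 at 24 to 27 bp (10.5%, interval 5.43% to 19.4%) and 13 of 23 at 28 bp or more (56.5%, interval 36.8% to 74.4%). At 24 bp or more the control share was 16 of 39 (41.0%) with the tract on the 3′ side and 5 of 60 (8.33%) on the 5′ side, a difference of 32.7 percentage points (interval 15.7 to 48.9). Median tract lengths there were 26 and 25 bp. The control share rose steeply within this class, and the sides were not split at 28 bp. The part of tract length in the difference between sides was therefore not tested.

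At the 22 shared sites the reads of both genotypes lay in the same range. The summits had 17 to 48 reads in Chd1 KO (median 33.5) and 20 to 37 in control (median 26), at a combined depth in control of 0.926 times that of Chd1 KO. Scaled to depth, the ratio of Chd1 KO to control had a median of 1.17 (range 0.601 to 2.12) and was above 1 at 14 of the 22 sites. Its interval lay above 1 at 3 sites and below 1 at none. These 3 were the peaks near Slc36a4, with 48 reads in Chd1 KO and 22 in control (ratio 2.02, interval 1.20 to 3.51), near Reep1, with 48 and 21 (ratio 2.12, interval 1.24 to 3.72), and in Accn1, with 46 and 23 (ratio 1.85, interval 1.10 to 3.20). The Glrb peak had 43 and 37 reads (ratio 1.08, interval 0.677 to 1.72). Near Gm12603, 1700016C15Rik, Gm10159 and Zfp870 the reads were 40 and 26, 45 and 27, 37 and 28, and 42 and 31. Near SNORA66 they were 33 and 26, and near Has2as 31 and 31. Sites were compared only where both lists had a peak, so that the ratios do not describe the other 451 peaks.

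**Figure D5:**
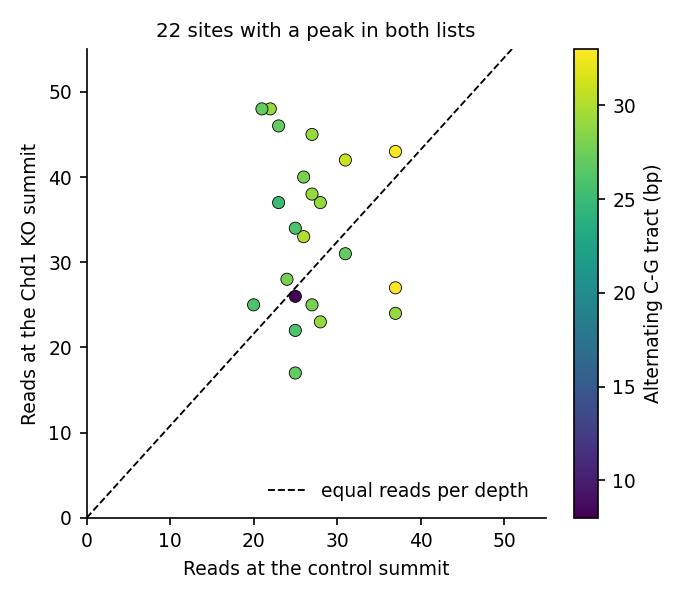
Extended reads at the summit in Chd1 KO (vertical) against control (horizontal) for the 22 sites with a peak in both lists, colored by the length of the C-G tract in bp. The dashed line marks equal reads per depth; 14 of the 22 points lie above it and 8 below.

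The lists differed in how weak a peak they admitted. The −log10 p-values of Chd1 KO peaks began at 4.88 and those of control peaks at 7.13, and the fewest reads at any summit were 13 and 17. With the Chd1 KO reads scaled to the control depth, 407 of the 473 peaks would have been as strong by p-value as the weakest peak of control, and 386 of these had no control peak. Whether fewer reads fell on those 386 sites in control, and how many fewer, cannot be read from lists that record only peaks.

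Most of these peaks lay between genes or in introns, as did other distal peaks. Of the 473, 253 were intergenic and 216 intronic (45.7%, interval 41.2% to 50.2%, against 43.4%, interval 40.9% to 46.0%, of the other distal peaks). The remaining 4 lay in exons outside coding sequence, in Rsad1, Ercc6, Hspb7 and Tbxas1. The distance to the nearest TSS had a median of 25.5 kb (quartiles 10.5 to 60.7), and no pair of peaks lay within 10 kb of each other. The share of CA repeats with a tract of 16 bp or more that were under a Chd1 KO peak was 33.0% at 1 to 10 kb from a TSS, 36.8% at 10 to 50 kb and 34.9% beyond. Within 1 kb of a TSS, outside the rule, it was 11 of 79 (13.9%), a difference of -21.3 percentage points from those further away (interval -28.0 to -11.5), with the same median tract length of 18 bp. On autosomes 341 of 937 such distal repeats were under a peak (36.4%) and on X 1 of 34 (2.94%), a difference of -33.5 points (interval -37.4 to -21.1). The single X peak was in an intron of Snx12, with a fold enrichment of 5.26 and a tract of 26 bp. Other distal peaks were also rare on X, with 2 of 1419 there. On Y there were 0 of the 473 peaks, and 14 of the 54 control peaks. The number of X copies in these lines was not given in the sources used here, and the cause of either difference was not tested.

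In total 207 genes held a peak in an intron or exon. The 12 that held more than 1 were at least 161.76 kb long. Peaks per kb or per CA repeat were not computed, so the part of gene length in these counts was not tested. Of the 12, 6 serve as examples. Accn1 had peaks of 9.48 and 4.86, with tracts of 27 and 15 bp. Neo1, which encodes a netrin receptor, had 7.87 and 4.54, with tracts of 25 and 12 bp. Pde1a, a calmodulin-dependent phosphodiesterase gene, had 7.41 and 6.43, with tracts of 19 and 20 bp. Rora, the gene of a nuclear receptor, had 6.28 and 5.26, with tracts of 24 and 22 bp, and Mecom, a zinc-finger transcription factor gene, had 6.54 and 5.26, with tracts of 26 and 19 bp. Dab1, which encodes an adaptor of Reelin signaling, had 4.15 and 4.06, with tracts of 21 and 19 bp. The host gene of an intronic peak had a median length of 127 kb, against 94.5 kb for the other distal intronic peaks. The repeat read CA on the sense strand of the gene in 87 of 208 intronic peaks with hosts on a single strand (41.8%, interval 35.3% to 48.6%). Among CA repeats with a tract within transcripts that no Chd1 KO peak covered, it did so in 443 of 1007 (44.0%), within that interval.

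Peaks just inside and just outside the limits of the rule were compared as a description. The 17 peaks with a CA repeat of 20 or 21 bp had a median fold enrichment of 5.92, and 23 otherwise matching peaks with 18 or 19 bp had 5.05. The 32 with a G/C run of 12 or 13 bp had a median of 4.75 and the 13 with 10 or 11 bp 4.95. The 11 with a summit over 1 kb and up to 2 kb from a TSS had 5.47, and 17 matching peaks within 1 kb had 5.61. Of the 28 distal peaks with a CA repeat but no run of 12 bp, 23 held a C-G tract of 8 to 11 bp.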

How the data were processed

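DSB-seq reads of Chd1 KO and control ES cells were mapped to mm9 by the authors with Bowtie2, filtered for mapping quality and reduced to 1 read per position. Replicates were combined, reads extended to 200 bp, and peaks called with MACS2 and cleared of blacklisted regions. The deposited lists give positions, a display score, the −log10 p-value and q-value and the fold enrichment (a ratio of reads to local background), each per combined library and not scaled between genotypes. The score was not used.

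Whole reads and their background at a summit were solved from its fold enrichment and p-value, which returned the authors' −log10 p-values within 7.25e-05 in Chd1 KO and 1.35e-04 in control. TSSs, exons and coding sequence came from GENCODE M1. Repeats, runs and tracts were searched on mm9, and a repeat or tract counted as under a peak by its centre. Overlap needed 1 bp. Wilson intervals were used for shares, Newcombe for differences, Katz for ratios of shares and Mantel-Haenszel for pooled odds. The read ratios at sites shared with control had exact binomial intervals. Searches and read recovery were tested on simulated data. Depths came from the study's reporting summary. Python 3.11.15, NumPy 2.4.6, SciPy 1.17.1, pandas 2.3.3, statsmodels 0.14.6, pysam 0.24.0, samtools 1.23.1 and Matplotlib 3.10.9 were used.

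The peaks and comparisons were chosen with earlier results of these data known. Named are the 10 highest and 5 lowest by fold enrichment, the 10 highest with a control peak, and the 3 longest repeats and runs. Genes with more than 1 peak, the X peak, exon hosts and the site under no peak were named after their values were seen. The alternatives changed the lengths, distances, cutoffs, chromosomes and overlap. ChIP-seq was not used here.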

Additional observations from a re-analysis of the deposited data

How the results depend on the processing

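With 473 peaks, 4.65% shared with control, 9.55% of CA repeats near a run covered, a median fold enrichment of 5.34, 85.0% of summits within 50 bp of the run and 96.0% with a tract as the values reported, 82 alternative values changed 1 choice at a time. A G/C run of 20 bp or more left 279 peaks, with 7.89% shared, a median of 5.75, 88.2% of summits near the run and 51.4% of repeats covered. A fold enrichment of 5 or more left 303, with a median of 5.98 and 88.4% of summits. A CA repeat of 30 bp or more gave 97.9% with a tract, and a tract of 16 bp or more 83.5%. A summit limit of 25 bp gave 61.1% and one of 100 bp 97.7%. With the run within 50 or 200 bp of the repeat, 10.8% and 7.30% of repeats were covered. The other 68 stayed within 1.5 times the count or within the interval of the value. After the data were seen, the odds ratio of 0.525, for tracts touching against not touching a CA repeat, was also computed in strata of tract and run length (0.501), without extended tracts (0.563) and on autosomes (0.505). Against tracts with no CA repeat of 10 bp within 100 bp it was 0.831 and its interval included 1; that group holds 139 tracts and not 621.

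No paired analysis was possible because the replicates were combined before peaks were called, and for the same reason no replicate was left out. No listed peak had fewer than 13 reads at its summit in Chd1 KO or fewer than 17 in control, so weaker sites are not described here.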
